A study of Arabidopsis thaliana with 141 samples.

Results

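The chloroplast and the mitochondrion of Arabidopsis thaliana keep small genomes of their own, and the transcripts of these genomes are described here across all libraries. Members were all loci whose identifier starts with ATCG (chloroplast) or ATMG (mitochondrion) and that held 50 or more read counts summed over all libraries. Members were thus chosen by their own read counts, summed over all groups, and this sum was uneven. Of the sets described below, adult shoots held 9030360 member counts and seedling set B4 held 3936677. Sets B1, B2 and B3 held 735118, 1054091 and 231272, and the time course 0. Loci of few reads could thus pass through the sets where they are high. That rule took 164 of the 285 organelle loci listed, 99 of 133 chloroplast and 65 of 152 mitochondrial loci, of 38009 loci in all. Of the 121 others, 82 had no count in any library and 39 had 1 to 49, and the members held 99.9953% of all organelle counts. Just inside the threshold stood ATCG01210 with 97 counts and ATMG00890 with 53, and just outside it ATMG00470 with 48 and ATCG00240 with 40. The annotation tables used here pair 17 of the 164 members with a protein name, through the notes of nuclear genes that match them. These members are named, and the others are given by identifier with no role.

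Seedlings were 7 days old, kept in liquid medium and pooled by 8 for each RNA, and shoots were from soil-grown plants of 4 weeks, all under 12 h of light and 12 h of dark. In a time course (12 libraries, n = 2 per time) WT seedlings received 100 nM of the flagellin peptide flg22 over 5, 10, 15, 30 or 60 min or, at 0 min, water. In 4 seedling sets, B1 to B4 (n = 3 per group), WT and the lines impk36 and impk4 were pretreated for 15 min with 10 uM of the compound 3MBiP or, in B1 WT seedlings alone, 0.1% DMSO. They then received no stimulus, or 20 uM abscisic acid, 50 uM methyl jasmonate or 100 nM of the peptide pep3 (B1), 2 nM flg22 or wounding by forceps (B2), UVB at 40 W (B3) or 10 mM H2O2 (B4). UVB and H2O2 were given to all 3 lines, but B3 and B4 hold unstimulated seedlings of WT only. Adult shoots were from impk4, either at 0 h with no treatment (titled as mock) or 3, 6, 12 or 24 h after a spray with 1% DMSO (mock) or 100 uM 3MBiP, and from untreated mpk4 plants (n = 3 per group). The labels do not spell out impk36 and impk4 and give no promoter or harvest hour, and nothing in them says whether libraries of a group came from separate plants, so p-values measure the spread between these libraries.

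Chloroplast genomes encode a core of the photosystems, the cytochrome complex and the ATP synthase together with ribosomal proteins, rRNAs and tRNAs, and plant mitochondrial genomes encode subunits of the respiratory chain. Neighbouring chloroplast genes are often transcribed together as polycistronic units, by a bacterial-type polymerase that relies on nuclear sigma factors and by a phage-type polymerase encoded in the nucleus. In both organelles most mature RNAs carry no stable poly(A) tail, and a tail marks RNA for decay. The kit named in the labels selects RNA by its poly(A) tail. Counts below are thus of RNA that passed this selection, and a rise or fall is one of these counts. Identifiers are numbered in order along each genome, so a run of numbers is a stretch of neighbouring loci.

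The line labels were checked on 3 nuclear kinase genes. MPK4 stood at 1233 CPM (read counts scaled to library size by TMM) in untreated impk4 shoots against 28.3 in mpk4, and at 1569 in impk4 seedlings of B1 with 3MBiP against 65.6 in WT. MPK3 stood at 17.6 in impk36 against 64.5 in WT and MPK6 at 321 against 62.5. Genic counts per library ranged from 13.9 to 40.4 M. Green-tissue marker genes had counts in every library, and summed root markers were at 48.5 to 501 CPM in shoots against 1522 to 4126 in seedlings.

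In the time course every chloroplast and mitochondrial locus was listed at 0 in all 12 libraries. At 20.5 to 27.8 M genic counts, a count of 0 allows an organelle share of up to 1.08e-05 to 1.47e-05% (3 counts), for counting error only. This limit holds only if organelle reads were aligned and counted as in the other sets, which is not known. It is therefore no bound on the organelle RNA of these seedlings. In the same libraries 46 nuclear loci annotated as matching an organelle gene summed to 62.2 CPM, against 6.49 to 32.7 CPM in the other sets, and 25 of the 46 were highest there. The cause was not tested, and the time course enters no comparison below.

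Few loci held most of the organelle reads, and which ones differed between sets. Of the mitochondrial counts, ATMG00020 and ATMG01390 together held 78.4% in adult shoots, 86.8% in B4 and 89.9 to 90.4% in B1 to B3. Among chloroplast loci ATCG00480 led in adult shoots with 36.0% of chloroplast counts and in B4 with 27.1%, followed by ATCG00470 (11.5%) and ATCG01130 (11.4%) in adult shoots and by ATCG01130 (14.0%) and ATCG00470 (9.12%) in B4. In B1, B2 and B3 the same ATCG00480 held 3.54, 2.81 and 3.96%, and ATCG00020 led with 17.7, 18.2 and 15.2%. The 9 neighbouring loci from ATCG00740 to ATCG00820, which include ATCG00750 (ribosomal protein S11), summed to 3106, 3271 and 3132 CPM in unstimulated WT libraries of B4 and to 37.3, 34.9 and 28.2 CPM in those of B3. These shares follow the locus list of the deposited files. Tables of B1 to B3 name 32678 loci, adult and B4 tables name 37336, and 2.92 to 4.09% of reads were ambiguous in the second kind against 0.908 to 1.76% in the first. The part of the list, of ambiguous reads and of the batch in these levels was not tested. Levels and shares of different sets come from tables that were scaled apart, so they stand side by side here with no test. The labels do not say whether counting used strand, and the kit does not mark it, so reads of a locus and of an antisense transcript cannot be told apart. Locus lengths are not used here, so a higher read count does not mark a more abundant transcript.

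The share of genic counts on chloroplast loci had a median of 1.31% (1.06 to 1.53%) over the 27 adult impk4 libraries and lay at 0.857, 0.882 and 0.954% in the 3 mpk4 libraries, below all of them. The mitochondrial share went the other way, from 0.0136% (0.00895 to 0.0223%) in impk4 to 0.0478, 0.0521 and 0.0686% in mpk4, again with no overlap. In seedlings the chloroplast share was 0.0730% (0.0256 to 0.101%) in WT of B1, 0.0190% (0.0157 to 0.450%) in impk36 and 0.0265% (0.0195 to 0.0663%) in impk4. In B2 the order of the lines differed, with 0.0482% (0.0434 to 0.0812%) in WT, 0.179% (0.122 to 0.207%) in impk36 and 0.0423% (0.0317 to 0.0516%) in impk4. All 12 impk36 libraries of B2 stood above all WT and impk4 libraries of that set, while in B1 the median impk36 library stood below the lowest WT library. In B3 the medians of the 3 lines were 0.0387, 0.0383 and 0.0357% and in B4 0.889, 0.984 and 0.908%, with overlapping ranges. WT of B3 and B4 pools unstimulated and stimulated libraries here, while impk36 and impk4 have stimulated ones only. Line and stimulus are thus mixed in these medians and ranges. WT of B1 likewise includes the DMSO libraries. Mitochondrial shares moved in the same order in B1 (medians 0.0406% in WT, 0.0122% in impk36 and 0.0162% in impk4) and in B2 (0.0224, 0.0914 and 0.0221%). In whole seedlings or shoots, fewer cells of a type and less RNA per cell cannot be told apart. A summed share carries no test here.

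**Figure D1:**
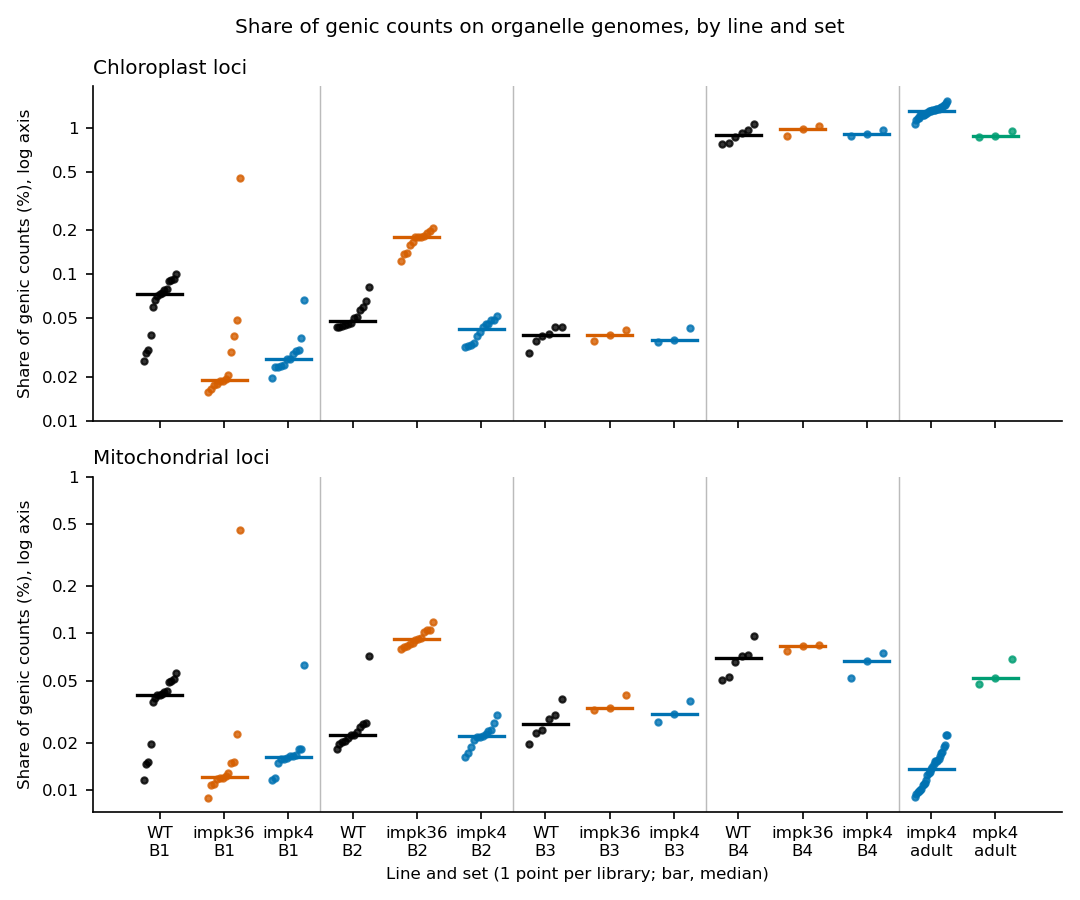
Share of genic counts on chloroplast loci (upper panel) and mitochondrial loci (lower panel), in percent on a log axis, 1 point per library and a bar at the median of each line in each set. The 12 impk36 libraries of B2 lie above the other lines of B2, 1 impk36 library of B1 lies at 0.450%, and mpk4 shoots lie below impk4 shoots for chloroplast loci and above them for mitochondrial loci; the time course, at 0, is not drawn.

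In B1, and between impk36 and the other lines of B2, a second quantity moved with these shares. It was the percentage of all counts that the counting tool set aside as alignments that were not unique. In B1, 11 WT libraries at 8.48 to 9.99% not unique had chloroplast shares of 0.0598 to 0.101%. The other 4 WT libraries, at 5.59 to 6.24%, had 0.0256 to 0.0385%, inside the range of the 11 impk36 libraries at 5.38 to 6.86%, which was 0.0157 to 0.0488%. The third pep3 library of impk36 had 42.4% not unique and shares of 0.450% chloroplast and 0.455% mitochondrial. The first unstimulated impk4 library of B1 had 12.8% with 0.0663 and 0.0628%. In B2 all 12 impk36 libraries lay at 13.4 to 16.5% not unique, against 6.47 to 12.8% in WT, where the highest was the first wounding library. Its shares were 0.0812% chloroplast and 0.0713% mitochondrial. Each comparison of lines in B1 and B2 below rests on these libraries, and the part of not unique alignments in it was not tested.

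**Figure D2:**
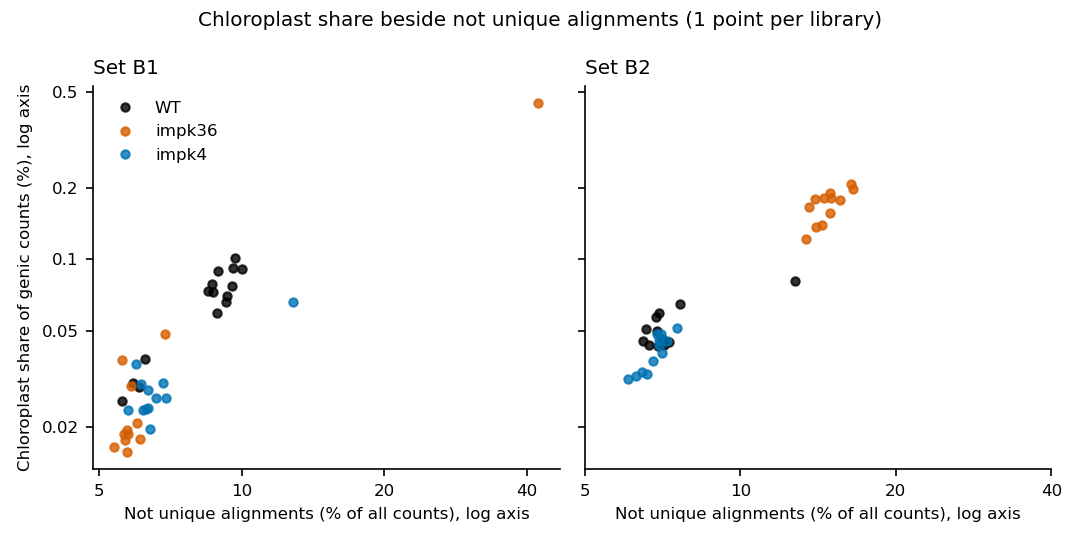
Chloroplast share of genic counts against not unique alignments as a percentage of all counts, both on log axes, 1 point per library of B1 (left) and B2 (right), coloured by line. The library with 42.4% not unique alignments has the highest share of B1, the 12 impk36 libraries of B2 lie at the upper right, and in B1 the 4 WT libraries under 7% not unique lie among those of impk36 and impk4.

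A locus is called higher or lower below when edgeR's quasi-likelihood test, fitted on all loci of a set, gave an adjusted p (Benjamini-Hochberg) under 0.05. After a filter on low counts 117 members (89 chloroplast, 28 mitochondrial) were tested in the adult set, 107 in B1, 121 in B2, 105 in B3 and 131 in B4. In all, 136 were tested in at least 1 set and 28 in none. Chloroplast loci scattered more between replicates than all loci tested, which were not matched to them for read level. B1, which holds the libraries of unlike not unique alignments described above, had a median biological coefficient of variation of 0.625 against 0.0681. It was 0.196 against 0.0545 for B2, 0.155 against 0.0773 for B3, 0.139 against 0.0687 for B4 and 0.132 against 0.0953 for adult shoots. No organelle share is tested in what follows, and counts of members are read beside the share of all loci called in the same comparison.

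Adult impk4 shoots taken 3 h after the mock spray differed from untreated shoots at 0 h in opposite directions along the chloroplast genome. Of 89 chloroplast loci tested 19 were higher and 43 lower, and of 28 mitochondrial loci none was higher and 21 were lower. Over all 20806 loci 34.6% were higher and 34.4% lower, 69.1% in either direction, so the total of 83 members, 70.9% of those tested, is near the background. The median log2 fold change was -0.43 for chloroplast and -1.24 for mitochondrial loci, against 0 over all loci tested. Of the 49 pairs of neighbouring chloroplast members that were both called, 48 had the same direction, and 58 of the 62 called loci fell in runs of 3 or more. With 43 of the 62 lower, part of this would arise in any order, and no expected number was computed.

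The lower runs included the stretch from ATCG00270 to ATCG00350, where all 7 loci tested were lower at 3, 6 and 12 h (median -1.58, -1.63 and -1.78). That from ATCG00420 to ATCG00520 includes ATCG00430, which the annotation notes name photosystem II reaction center protein G. The name comes from the note of a nuclear gene that matches it, AT5G11770. Whether ATCG00430 encodes a photosystem subunit was not checked here. ATCG00430 stood at 610.5, 455 and 539.7 CPM in the untreated libraries and at 215, 201 and 178 3 h after mock. The groups do not overlap, and the log2 fold change was -1.43 ± 0.10 (SE, adjusted p = 9.25e-13). It was -1.51 ± 0.10 at 6 h, -1.54 ± 0.10 at 12 h and -0.94 ± 0.10 at 24 h, each called. ATCG00530, named as related to CemA, a plastid envelope protein, fell from 35.6, 32.0 and 35.6 to 25.6, 26.5 and 21.3 CPM, again with no overlap (log2 fold change -0.49 ± 0.13 SE, adjusted p = 0.00118). ATCG00020 showed the largest fold change of a chloroplast locus at 3 h among those tested, from 371, 307 and 289 to 46.7, 41.7 and 44.4 CPM (log2 fold change -2.86 ± 0.19 SE, adjusted p = 4.71e-12). At 24 h it stood at 156, 129 and 149, still below 0 h. ATCG00660 (ribosomal protein L20) was not called at any mock time. ATCG00670, the plastid-encoded ClpP, the proteolytic subunit of a protease, was called lower at 12 h only, a call lost in 3 of 6 runs that left out 1 library.

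The higher runs were ATCG00170 to ATCG00190 (3 of 3 at every mock time), ATCG00740 to ATCG00820 (7 of 9 at every time) and ATCG01050 to ATCG01130 (9, 9, 9 and 8 of 9 at 3, 6, 12 and 24 h). These stretches were marked out after their values were seen. Their median log2 fold changes at 3 h were 1.04, 0.71 and 0.81. ATCG00750 (ribosomal protein S11, a part of the small plastid ribosome subunit) stood at 92.0, 84.8 and 110.4 CPM at 0 h and at 174, 146 and 173 3 h after mock. No mock library at 3, 6, 12 or 24 h fell within the untreated range, and the change was 0.78 ± 0.15 (SE, adjusted p = 7.59e-05) at 3 h and 0.51 ± 0.15 (SE, adjusted p = 0.00573) at 24 h. Summed over ATCG00740 to ATCG00820, the untreated libraries held 2423, 1946 and 2465 CPM and the mock libraries at 3 h 3578, 3209 and 3423 CPM. ATCG00180 rose from 3.97, 6.18 and 5.52 to 14.0, 13.2 and 15.2 CPM (log2 fold change 1.44 ± 0.18 SE, adjusted p = 6.53e-08), and ATCG01100 from 17.6, 22.2 and 22.9 to 51.7, 38.9 and 51.1 CPM (log2 fold change 1.18 ± 0.17 SE, adjusted p = 2.19e-06).

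**Figure D3:**
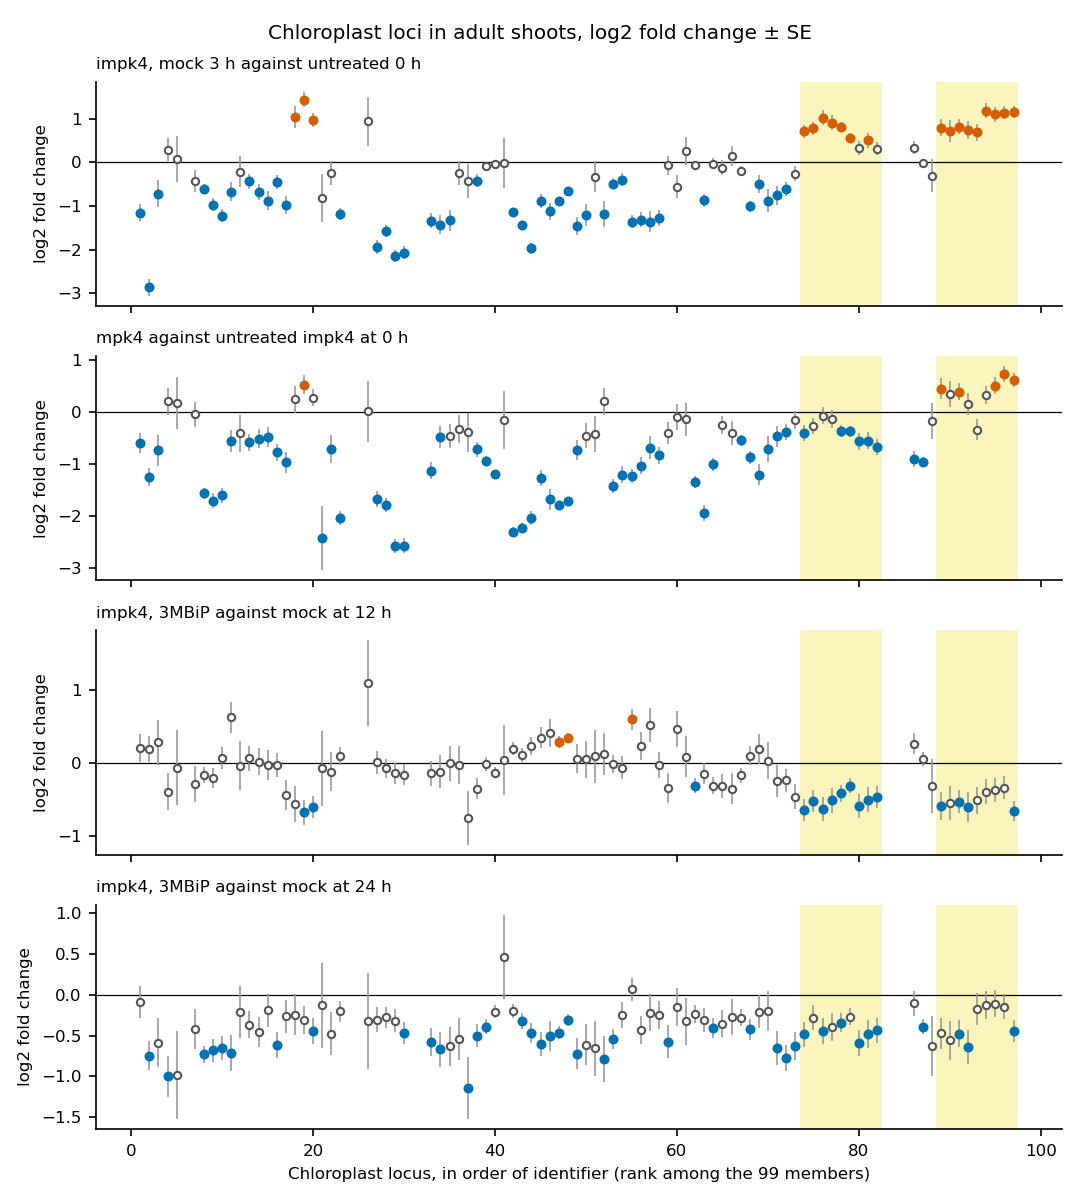
Log2 fold change ± SE of each chloroplast member tested in 4 comparisons of adult shoots, in the order of the identifiers; filled orange points were called higher, filled blue points lower, and open points were not called. The yellow bands mark ATCG00740 to ATCG00820 and ATCG01050 to ATCG01130, where 16 of 18 loci were higher after mock at 3 h and 13 of 18 lower with 3MBiP against mock at 12 h, while most other called loci were lower after mock and in mpk4.

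Mitochondrial loci moved in 1 direction after mock: 0 were higher at any of the 4 times, and 21, 24, 19 and 10 of 28 were lower at 3, 6, 12 and 24 h, with medians of -1.24, -1.37, -1.04 and -0.54. ATMG00020 stood at 132, 118 and 107 CPM at 0 h, at 46.0, 41.9 and 47.2 at 3 h and at 87.4, 74.5 and 76.7 at 24 h. The 3 groups do not overlap, and the fold changes were -1.40 ± 0.15 (SE, adjusted p = 9.56e-09) at 3 h and -0.58 ± 0.15 (SE, adjusted p = 0.00128) at 24 h. Of the named members, ATMG00560 (a nucleic acid-binding protein with an OB fold) was called lower at 3 h (log2 fold change -2.33 ± 0.75 SE, adjusted p = 0.00723) from 0.407, 0.571 and 0.345 to 0.0441, 0.107 and 0.105 CPM, which are few reads. ATMG01090 (ATP synthase 9, of the ring that turns in the mitochondrial ATP synthase) was called at 6 h (log2 fold change -1.77 ± 0.56 SE, adjusted p = 0.00632). ATMG01220, a protein of unknown function, was called at 12 h (log2 fold change -1.66 ± 0.69 SE, adjusted p = 0.0349) and lost that call in 4 of 6 runs that left out 1 library. ATMG00730 (cytochrome c oxidase subunit 3, of the last complex of the respiratory chain) was called at 6 h with overlapping libraries, and also lost the call in 4 of 6 such runs (log2 fold change -1.63 ± 0.73 SE, adjusted p = 0.0487).

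In total 86 of 117 members were called at 6 h, where 70.9% of all loci were called (35.8% higher and 35.2% lower). At 12 h 84 members were called, against 71.5% of all loci (38.1 and 33.4%), and at 24 h 49, against 62.6% (32 and 30.7%). All 4 comparisons share the untreated group, so they are set side by side only. Time after the spray, the hour of the day and the spray itself cannot be told apart here, since the untreated plants were taken once. Summed nuclear green-tissue markers ranged from 8096 to 49494 CPM across the adult libraries, and their part in these results was not tested.

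Nuclear genes for organelle transcription were read from lists chosen for this account. Of 13 plastid polymerase-associated proteins, which join the bacterial-type polymerase, all 13 were higher at 3 h (median 2.06), 13 at 6 h (2.18), 12 at 12 h (1.34) and 13 at 24 h (1.41). PRIN2 stood at 37.2 ± 0.750 against 6.67 ± 0.192 CPM (± SD, n = 3) and FSD2, a plastid superoxide dismutase, at 33.0 ± 3.20 against 4.78 ± 0.964 CPM. The 3 phage-type organelle RNA polymerases were higher at all 4 times, with SCA3, the plastid enzyme, at 79.9 ± 2.64 against 27.4 ± 1.41 CPM at 3 h, a change of 1.55 ± 0.09 (SE, adjusted p = 3.75e-14). Of 6 sigma factors 2 were higher and 3 lower at 3 h. SIGE fell from 417 ± 24.6 to 33.6 ± 2.13 CPM at 3 h, and to 1.81 ± 0.0894 at 12 h. Of 16 nuclear subunits of the photosynthetic complexes, 0 were higher and 9 lower at 3 h (median -0.24). The counts were 0 and 14 at 12 h (-1.22), and 5 and 1 at 24 h (0.09). Of 8 genes for organelle RNA processing and decay, 6 were higher and 2 lower at 3 h (median 0.51). Among them the RNA-binding protein CP29, which stabilises chloroplast transcripts, rose from 107 ± 26.4 to 1221 ± 14.5 CPM (log2 fold change 3.52 ± 0.12 SE, adjusted p = 8.90e-19). All 3 Whirly proteins, which bind organelle DNA, were higher at each time.

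**Figure D4:**
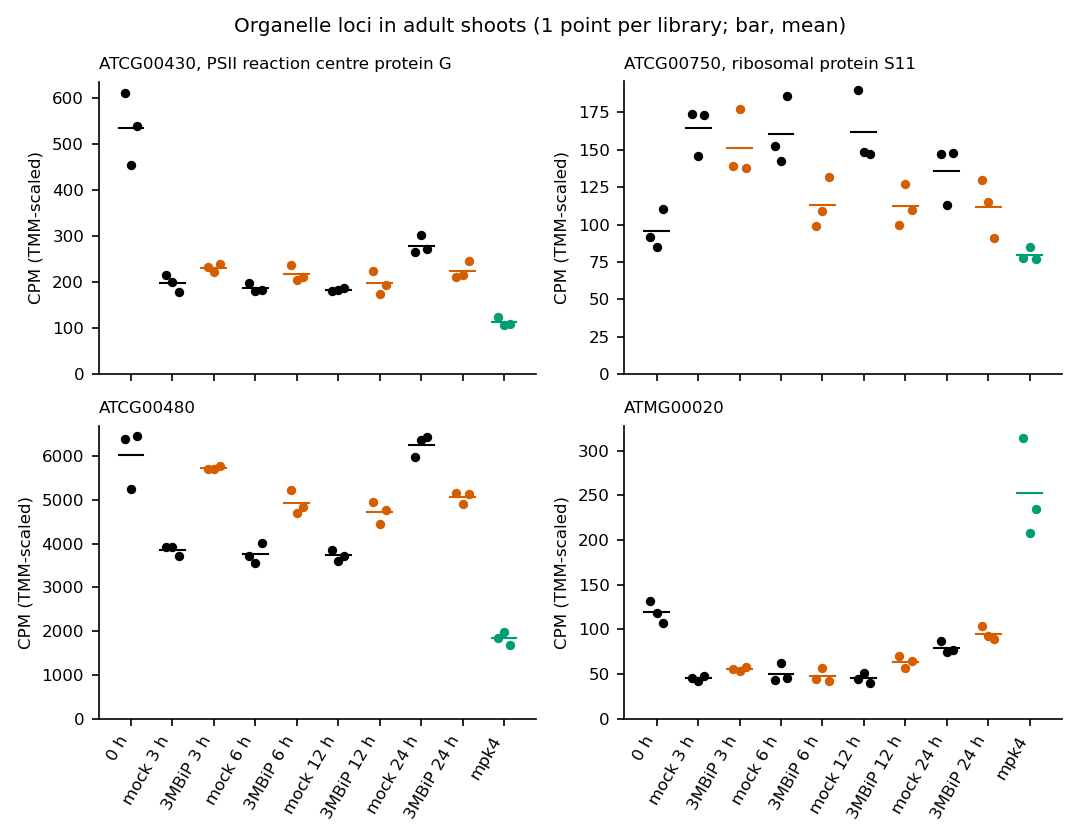
TMM-scaled CPM of ATCG00430, ATCG00750, ATCG00480 and ATMG00020 in every adult library, on axes from 0, 1 point per library and a bar at the mean of 3; black, untreated and mock; orange, 3MBiP; green, mpk4. ATCG00430 is highest at 0 h and lowest in mpk4, ATCG00750 is higher after mock than at 0 h, and ATMG00020 is highest in mpk4 (208 to 314 CPM).

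In untreated mpk4 shoots fewer reads lay on chloroplast loci, and more on the leading mitochondrial loci, than in untreated impk4 shoots. Of 89 chloroplast loci 6 were higher and 55 lower (median -0.56), and of 28 mitochondrial loci 4 were higher and 3 lower (median 0.08). Over all loci 45.5% were higher and 32.7% lower, 78.2% in all, with a median of 0.19. All 45 pairs of neighbouring chloroplast members that were both called shared their direction, and 57 of 61 called loci fell in runs, 11 lower and 1 higher. Since 55 of the 61 were lower, most pairs would share a direction in any order, and no expected number was computed. ATCG00430 stood at 125, 106 and 110.2 CPM in mpk4, below every untreated impk4 library (log2 fold change -2.23 ± 0.10 SE, adjusted p = 6.44e-17). ATCG00530 stood at 16.1, 10.1 and 12.3 CPM (log2 fold change -1.42 ± 0.13 SE, adjusted p = 1.35e-10). ATCG00670 (ClpP) was lower by less, -0.55 ± 0.11 (SE, adjusted p = 5.33e-05), and ATCG00660 and ATCG00750 were not called, the latter at -0.26 ± 0.15 (SE, adjusted p = 0.117). ATCG00300 was among the lowest, with 9.47, 7.33 and 9.83 CPM against 60.2, 48.6 and 49.8 (log2 fold change -2.57 ± 0.14 SE, adjusted p = 5.82e-15). Its stretch, ATCG00270 to ATCG00350, had a median of -1.68, against -1.58, -1.63 and -1.78 after mock at 3, 6 and 12 h. In that order, ATCG00550 to ATCG00580 had -0.93 against -1.34, -1.35 and -1.52. ATCG00680 to ATCG00720 had -0.71 against -0.76, -0.72 and -0.76. ATCG00420 to ATCG00520 had -1.68 against -1.15, -0.91 and -1.01. Shoots of mpk4 were not tested against mock shoots.

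Of the 6 chloroplast loci higher in mpk4, 5 lay among the 9 from ATCG01050 to ATCG01130. In the stretch from ATCG00740 to ATCG00820, 6 of 9 were lower (median -0.37). ATCG01130 stood at 1289, 1191 and 1366 CPM against 813, 794 and 905, with no overlap (log2 fold change 0.61 ± 0.14 SE, adjusted p = 0.000248). ATCG00480, the most read chloroplast locus, stood at 1840.4, 1979.8 and 1688 CPM against 6382, 5257 and 6452 (log2 fold change -1.72 ± 0.08 SE, adjusted p = 3.15e-17). ATMG00020 stood at 314, 208 and 235 CPM, above every impk4 library of the adult set (log2 fold change 1.08 ± 0.15 SE, adjusted p = 3.12e-07). The 4 named mitochondrial members tested were not called. In the nuclear lists all 16 photosynthetic subunits were lower (median -2.26), all 6 sigma factors were lower (-1.36), and 10 of 13 polymerase-associated proteins were higher and 1 lower (1.05). SIGE stood at 6.52 ± 0.958 against 417 ± 24.6 CPM, a change of -6.00 ± 0.09 (SE, adjusted p = 5.53e-26). The 3 organelle polymerases were higher (1.08). The labels give no harvest hour for mpk4, and genotype and hour cannot be told apart. This comparison shares its untreated libraries with the mock comparisons.

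Between 3MBiP and mock at the same time in impk4 shoots, few organelle loci differed at 3 h and more at 24 h. At 3 h 4 of 117 members were higher and 0 lower, where 0.26% of all loci were higher and 0.0192% lower. These included ATCG00480 and ATCG00470, and ATCG00480 stood at 5708, 5712 and 5783 CPM against 3926, 3913 and 3706 in mock (log2 fold change 0.58 ± 0.07 SE, adjusted p = 4.78e-05). The calls of both held in all 6 runs that left out 1 library, while the count was 2 without the first 3MBiP library or the second or the third mock library. At 6 h 3 were higher and 10 lower, against 3.06 and 3.03% of all loci and 6.08% in either direction. That count is fragile: it was 1 without the first 3MBiP library at 6 h, 5 without the second, 3 without the second mock library and 2 without the third. ATCG00750 stood at 98.9, 109 and 132 CPM against 153, 143 and 186 (log2 fold change -0.50 ± 0.15 SE, adjusted p = 0.0491). That call was lost under another normalisation, without the filter and in 5 of 6 runs that left out 1 library.

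At 12 h 4 members were higher and 16 lower, where 8.48 and 5.71% of all loci were, 14.2% in either direction. All 9 loci from ATCG00740 to ATCG00820 were lower (median -0.51), with sums of 2042, 2521 and 2249.6 CPM under 3MBiP and 3713, 2868 and 2903 CPM under mock. ATCG00750 stood at 100.0, 127 and 110.1 against 190.1, 149 and 147 CPM (log2 fold change -0.52 ± 0.15 SE, adjusted p = 0.0213), a call lost in 3 of 6 runs that left out 1 library. ATCG01130 stood at 968, 1168 and 1058 against 2038, 1525 and 1499.8 CPM (log2 fold change -0.66 ± 0.14 SE, adjusted p = 0.00186), and ATCG00480 was still higher (log2 fold change 0.34 ± 0.07 SE, adjusted p = 0.00250). The count of 20 was 3 without the first mock library, 5 without the first and 6 without the third 3MBiP library.

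At 24 h 0 members were higher and 40 lower, 39 of them chloroplast, against 11.5% of all loci lower. The median over chloroplast loci was -0.42, against -0.01 over all loci tested. The count was 24 without the second 3MBiP library at 24 h and 22 without the third. ATCG00480 was lower at this time, with 5153, 4908 and 5133 CPM against 5969, 6360.0 and 6429 in mock (log2 fold change -0.30 ± 0.07 SE, adjusted p = 0.00327). ATCG00530 stood at 21.3, 19.7 and 22.9 against 30.5, 32.6 and 29.8 CPM (log2 fold change -0.54 ± 0.13 SE, adjusted p = 0.00226) and ATCG00430 at 210.4, 215 and 246 against 265, 302 and 272 (log2 fold change -0.32 ± 0.10 SE, adjusted p = 0.0173), both with no overlap; the call of ATCG00430 was lost in 3 of 6 runs that left out 1 library. No change between times was tested for 3MBiP against mock. Mean chloroplast shares were 1.14 ± 0.0817% with 3MBiP and 1.39 ± 0.0390% with mock at 24 h (± SD, n = 3), with no overlap. Not unique alignments were 7.98 and 7.59% there, also with no overlap, and their part was not tested. Of the nuclear lists, 5 of 13 polymerase-associated proteins were lower at 6 h, 3 at 12 h and 3 at 24 h, where 1 was higher, against 13.7% of all loci higher at that time. Of 16 photosynthetic subunits 4 were lower at 24 h.

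In seedling set B2, impk36 was set against WT over 4 conditions that all had 3MBiP (no stimulus, flg22 for 30 min or 1 h, and wounding). Of 121 members 116 were higher and 0 lower, where 31.9% of all loci were higher, and the median log2 fold change was 1.50 for chloroplast and 1.71 for mitochondrial loci. In 55 of the 116 the 12 impk36 libraries did not overlap the 12 WT libraries, and over all loci called higher this held for 3.48%. ATMG00730 (cytochrome c oxidase subunit 3) had a lowest, median and highest level of 0.746, 1.47 and 2.08 CPM in impk36 and a lowest, median and highest level of 0.0663, 0.308 and 0.499 CPM in WT. All impk36 libraries were above all of WT (log2 fold change 2.36 ± 0.18 SE, adjusted p = 6.16e-14). ATCG00530 had a lowest, median and highest level of 9.76, 14.3 and 18.1 CPM in impk36 and a lowest, median and highest level of 4.06, 5.01 and 6.95 CPM in WT, likewise apart (log2 fold change 1.44 ± 0.10 SE, adjusted p = 1.92e-13).

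The other named chloroplast members rose by different amounts: ATCG00430 by 1.54 ± 0.12, ATCG00660 by 1.02 ± 0.11, ATCG00670 by 0.85 ± 0.10 and ATCG00750 by 0.52 ± 0.16 on the log2 scale. ATCG00750 had a lowest, median and highest level of 4.32, 8.87 and 14.2 CPM in impk36 and a lowest, median and highest level of 4.70, 5.54 and 8.29 CPM in WT, and these overlap. Among the mitochondrial members ATMG00410 (ATPase subunit 6-1) rose by 2.46 ± 0.31, ATMG01080 (F0-ATPase subunit 9) by 1.27 ± 0.16 and ATMG01320 (NADH dehydrogenase subunit 2, of complex I) by 1.65 ± 0.21, with overlapping libraries. ATCG00020, the most read chloroplast locus in B2, had a lowest, median and highest level of 246, 362 and 434 CPM in impk36 and a lowest, median and highest level of 46.7, 54.7 and 187 CPM in WT (log2 fold change 2.48 ± 0.15 SE, adjusted p = 1.29e-13). The stretch from ATCG00740 to ATCG00820 had a median of 0.60 and that from ATCG00270 to ATCG00350 one of 2.10. Not unique alignments were 14.8 ± 1.01% in impk36 and 7.43 ± 1.71% in WT (mean ± SD, n = 12), and their part in this difference was not tested. Of the nuclear lists 14 of 16 photosynthetic subunits were higher (median 0.33) and the 3 organelle polymerases lower (-0.25), where 31.3% of all loci were lower.

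The impk4 line of B2 went the other way from WT. Of 121 members 0 were higher and 53 lower, 51 of them chloroplast, where 22% of all loci were lower; the chloroplast median was -0.43. All 5 named chloroplast members were lower, ATCG00750 by most. It had a lowest, median and highest level of 1.81, 2.94 and 5.68 CPM in impk4, which overlaps WT (log2 fold change -0.99 ± 0.19 SE, adjusted p = 0.000118). ATCG00660 changed by -0.66 ± 0.13, ATCG00670 by -0.41 ± 0.11, ATCG00430 by -0.43 ± 0.15 and ATCG00530 by -0.32 ± 0.11. The 12 libraries of each line overlapped for all of the 53, as for nearly all loci called lower (0.257% were without overlap). Not unique alignments were 6.82 ± 0.412% in impk4. In the nuclear lists 10 of 13 polymerase-associated proteins and 8 of 16 photosynthetic subunits were higher, against 20.8% of all loci. Both line comparisons share the WT libraries.

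**Figure D5:**
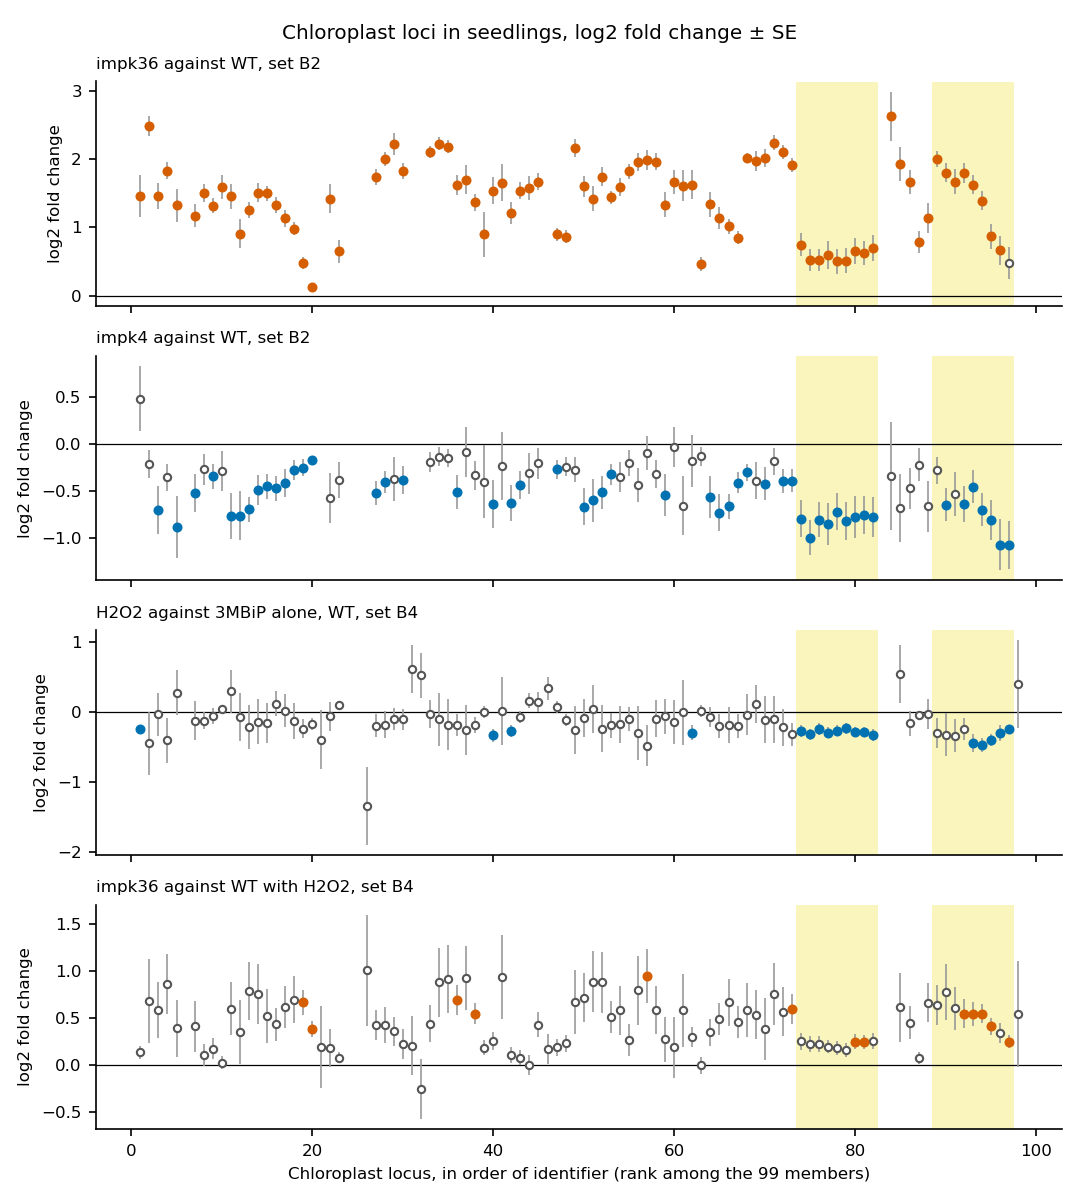
Log2 fold change ± SE of each chloroplast member tested in 4 comparisons of seedlings, in the order of the identifiers; filled orange points were called higher, filled blue points lower, and open points were not called. In B2 nearly all loci were higher in impk36 and 51 of 88 lower in impk4, and the yellow bands (ATCG00740 to ATCG00820 and ATCG01050 to ATCG01130) hold 14 of the 18 chloroplast loci lower with H2O2.

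In set B1 the same line comparisons, over 4 conditions (3MBiP alone, abscisic acid, methyl jasmonate and pep3), depended on single libraries. For impk36 2 of 107 members were lower and 0 higher, where 15.8% of all loci were lower and 13.5% higher. Without the third pep3 library of impk36, the library with 42.4% not unique alignments, 92 members were lower, with a median log2 fold change of -1.14 over the members tested. ATCG00530 had a lowest, median and highest level of 1.40, 2.27 and 19.8 CPM in impk36, the highest being that library, and a lowest, median and highest level of 2.48, 5.80 and 9.30 CPM in WT. For impk4 14 members were lower and 0 higher, against 6.33% of all loci lower and 5.77% higher. All 14 were chloroplast loci, the only named member being ATCG00530, with a lowest, median and highest level of 1.57, 2.64 and 4.01 CPM in impk4 (log2 fold change -1.03 ± 0.33 SE, adjusted p = 0.0418); its call was lost in 17 of 24 runs that left out 1 library. Of those 24 runs 19 moved the count of 14 by more than 1.5 times, to between 2 (without the first 3MBiP or the second pep3 library of WT) and 35 (without the third pep3 library of WT). Of the 24 runs for impk36, 21 moved the count of 2 by that much, to between 0 and 92, the next highest being 13 without the third unstimulated library of impk36. The 4 WT libraries of low not unique alignments were the third replicate of each of the 4 conditions, and their chloroplast shares lay inside the impk36 range.

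Of the stimuli in B1, none gave a call among the 107 members. The unadjusted p was under 0.05 for 0 members with 3MBiP against DMSO, 0 with abscisic acid, 0 with methyl jasmonate and 1 with pep3, and DESeq2 called 0 in each. Over all loci 8.65, 30.4, 32.2 and 62.5% were called. The median biological coefficient of variation in B1 was 0.625 for chloroplast and 0.669 for mitochondrial loci, against 0.0681 over all loci tested. With that scatter, the lack of calls does not show that these counts were unchanged. ATCG00750 stood at 5.92, 7.57 and 3.13 CPM with pep3 and 7.84, 4.38 and 2.42 with 3MBiP alone. With pep3 11 of 13 nuclear polymerase-associated proteins, 5 of 6 sigma factors and 15 of 16 photosynthetic subunits were lower, against 30.4% of all loci. Leaving out the third methyl jasmonate library gave 1 call. For pep3 leaving out the first 3MBiP library gave 1 and leaving out the third pep3 library 2.

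In B2 WT seedlings the immune peptide flg22 at 2 nM left most members uncalled. The 30 min and 1 h of flg22 are those of the library titles, while the protocol in the labels gives 1 h for every stimulus. After 30 min 2 of 121 were higher and none lower, where 22.1% of all loci were higher and 21.1% lower. After 1 h 2 were higher and 1 lower. At 1 h 29.8% of all loci were higher and 30.6% lower, 60.4% in all. ATMG00410 (ATPase subunit 6-1) was higher at both times but rests on few reads: its 3 libraries held 0, 0 and 1 counts with 3MBiP alone, 6, 2 and 4 after 30 min and 1, 5 and 6 after 1 h. The ratios, per genic count, were 12.0 (95% interval 1.78 to 515) and 10.4 (1.54 to 445), exact intervals for counting error only. At 30 min the count was 1 without the second 3MBiP library or the third flg22 library and 0 without the first flg22 library, and at 1 h it was 5 without the second 3MBiP library. At 1 h 10 of 13 polymerase-associated proteins were lower and 1 higher, and all 16 photosynthetic subunits were lower.

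Wounding raised 10 of 121 members, 7 of them mitochondrial, and lowered none, where 28.8% of all loci were higher and 24.8% lower. ATMG00020 stood at 386, 141.3 and 119.5 CPM after wounding and 129, 115 and 101 without (log2 fold change 0.90 ± 0.27 SE, adjusted p = 0.00572). The first wounding library, with 12.8% not unique alignments, is far above the other two, and the groups overlap. ATCG00020 showed the same order, with 187, 56.8 and 52.9 against 52.5, 46.7 and 52.7 CPM (log2 fold change 0.95 ± 0.29 SE, adjusted p = 0.00779), a call lost without that library. Without it 2 members were called, and without the third wounding library 24. ATMG01080 (F0-ATPase subunit 9) was higher in all 3 libraries, 1.11, 0.657 and 0.720 against 0.366, 0.328 and 0.309 CPM (log2 fold change 1.29 ± 0.37 SE, adjusted p = 0.00320). ATMG00410 held 6, 4 and 6 counts after wounding against 0, 0 and 1, a ratio of 16.0 (95% interval 2.49 to 671).

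UVB in B3 changed 15 of 105 members, 5 higher and 10 lower, against 19.3 and 21.5% of all loci, 40.8% in either direction. All 15 were without overlap between the libraries, as were 95.2% of all loci called. ATMG00020 stood at 161, 150.4 and 211 CPM with UVB and 126, 111 and 136 without (log2 fold change 0.49 ± 0.15 SE, adjusted p = 0.0196), a call lost in 2 of 6 runs that left out 1 library. ATMG00030 was higher too (log2 fold change 0.57 ± 0.10 SE, adjusted p = 0.000513). ATCG00270 stood at 6.92, 4.65 and 7.45 CPM with UVB and 11.3, 9.10 and 9.15 without (log2 fold change -0.64 ± 0.16 SE, adjusted p = 0.00584), and ATCG00340 fell as well (log2 fold change -0.64 ± 0.18 SE, adjusted p = 0.0134). None of the 9 named members tested was called. The mitochondrial share was 0.0321 ± 0.00502% with UVB and 0.0224 ± 0.00242% without (± SD, n = 3), and not unique alignments were 10.5 against 7.01%, both without overlap; their part in the result was not tested.

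With H2O2 in B4 19 of 131 members were lower, 18 of them among 93 chloroplast loci tested, and none was higher. Over all loci 18.9% were lower and 21.1% higher. The total of lower members is thus not above the background and the chloroplast count is near it, while none higher is below it. All 9 loci from ATCG00740 to ATCG00820 were lower (median -0.28) and so were the 5 from ATCG01090 to ATCG01130. ATCG00750 stood at 151, 135 and 160.3 CPM with H2O2 and 189, 189.7 and 177 without (log2 fold change -0.32 ± 0.08 SE, adjusted p = 0.00647), with no overlap. Summed over ATCG00740 to ATCG00820 the libraries held 2599, 2422 and 2862 against 3106, 3271 and 3132 CPM. ATMG00180 (cytochrome c biogenesis 452, of the assembly of c-type cytochromes) was called lower with overlapping libraries (log2 fold change -0.83 ± 0.31 SE, adjusted p = 0.0405); DESeq2 did not call it, and 4 of 6 runs that left out 1 library lost it. The count was 11 without the second 3MBiP library and 12 without the first H2O2 library. The chloroplast share was 0.809 ± 0.0483% with H2O2 and 0.974 ± 0.0692% without, with no overlap, and not unique alignments were 8.37 and 8.99% with overlap.

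Among seedlings that all had H2O2, 14 of 131 members were higher in impk36 than in WT and 0 lower. Over all loci 3.01% were higher and 8.02% lower. ATCG00180 stood at 23.3, 19.0 and 22.0 CPM in impk36 and 12.4, 12.3 and 15.7 in WT (log2 fold change 0.67 ± 0.13 SE, adjusted p = 0.00481), with no overlap. ATCG00360 stood at 8.87, 6.45 and 8.82 against 4.19, 5.22 and 5.54 CPM (log2 fold change 0.69 ± 0.16 SE, adjusted p = 0.00956), a call lost in 3 of 6 runs that left out 1 library. The count moved with every library: it was 5, 7 and 22 without the first, the second or the third WT library and 5, 23 and 6 without those of impk36. Not unique alignments were 9.94% in impk36 and 8.37% in WT, without overlap, and their part was not tested. These WT libraries also enter the H2O2 comparison above. For impk4 with H2O2 0 members were called, 15 had an unadjusted p under 0.05 and DESeq2 called 2, against 1.19% of all loci called; the count was 2 without the third WT library. With UVB, 0 members were called for impk36 (5 with an unadjusted p under 0.05, 0 by DESeq2) and 0 for impk4 (6 and 0), against 9.73 and 0.696% of all loci. The replicate block gave 1 for impk4. For impk36 the count was 2, 1 and 1 without the first, the second or the third WT library.

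Whether the response to a stimulus differed between a line and WT was tested for 3 stimuli each in B1 and B2. Of these 12 interactions 10 gave no call among the members, with 0 to 28 members at an unadjusted p under 0.05 and, by DESeq2, 1 call for flg22 at 30 min in impk4; 28 was the response to pep3 in impk36, where DESeq2 called 9 and the replicate block gave 4. That response rests on the third pep3 library of impk36, the one with 42.4% not unique alignments and a chloroplast share of 0.450%: the median log2 difference over the members was 2.03 with it and -0.87 without it, when 1 member was called lower. The count was 30 without the first and 20 without the second pep3 library of impk36, and 1 without the third 3MBiP or the second pep3 library of WT. Of all loci, 0, 0.0141 and 16.1% were called for abscisic acid, methyl jasmonate and pep3 in impk36 and 0, 0.00471 and 0.702% in impk4. For flg22 at 30 min, flg22 at 1 h and wounding they were 6.6, 15.1 and 5.45% in impk36 and 3.21, 10.5 and 8.01% in impk4. The response to wounding differed for ATMG00410 between impk36 and WT and for ATMG01380 between impk4 and WT, 1 call each. The call of ATMG00410 was lost in 11 of 12 runs that left out 1 library. These runs gave 0 to 5 calls in impk36 and 0 to 7 in impk4, the highest in both without the third wounding library of WT and 0 in both without the first. For flg22 at 1 h 1 member was called in impk36 without the third 3MBiP library of WT, and 1 in impk4 without the third flg22 library of impk4.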

How the data were processed

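RNA-seq libraries of Arabidopsis seedlings and shoots were described from the read counts per locus that the authors deposited, 1 table per library. Per the submitters' processing notes, reads were aligned with TopHat to TAIR10 and counted with HTSeq, with versions not given in the sources used here, and the deposited counts are raw. Lines of the counting tool (no feature, ambiguous, not unique) were kept out of library sizes, and their shares are of all counts in the file. Members, gene lists and stretches of neighbouring loci were chosen with earlier results of these data known.

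Each seedling set and the adult set was fitted alone with edgeR 4.0.16 in R 4.3.3 (TMM scaling, filterByExpr, robust quasi-likelihood test), on all loci, with Benjamini-Hochberg adjustment over all loci tested and a threshold of 0.05. Line comparisons in B1 and B2 are means over 4 conditions. Printed CPM are TMM-scaled, and shares are raw organelle counts over genic counts, with no test. Intervals (95%, exact) and limits for a count of 0 cover counting error only. The fits were tested on simulated data. Alternatives were relative log expression scaling, library sizes from nuclear loci, no filter, a replicate block, DESeq2 1.42.0, leaving out each library of a comparison, and 3 other definitions of the share. Same-numbered libraries deviated together, with every correlation of a pair over 0.1, in 2 of 26 comparisons: impk4 against WT with UVB (lowest 0.180) and mock 3 h against 0 h (lowest 0.116).

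Loci named are the 10 with the most reads per organelle, up to 5 per direction and comparison by fold change among those called, without overlap and at a mean of 1 CPM or more, the loci next to the threshold, members with a protein name in the annotation notes, and members of the nuclear lists; at most 2 unnamed identifiers per direction are printed. No functional class could be given to any organelle locus by symbol. No sequence or coordinate of these loci is used here.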

Additional observations from a re-analysis of the deposited data

Results flagged for a closer look

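In 2 loci the response to wounding differed between a line and WT by an interaction test (edgeR, adjusted over all loci of B2). For ATMG00410 the log2 response in impk36 was lower than in WT, with a difference of -3.66 ± 1.14 (SE, adjusted p = 0.0499). Counts in WT were 0, 0 and 1 without and 6, 4 and 6 with wounding. In impk36 they were 12, 14 and 18 without and 8, 8 and 17 with wounding. The WT change therefore starts from 1 read over 3 libraries, and the impk36 ratio was 0.977 (95% interval 0.603 to 1.57). For ATMG01380 the difference between impk4 and WT was -2.99 ± 0.96 (SE, adjusted p = 0.0466). WT stood at 1.77, 0.766 and 0.227 CPM with wounding and 0.261, 0.219 and 0.206 without, while impk4 stood at 0.208, 0.101 and 0.158 CPM with it and at 0.325, 0.0729 and 0.600 without. The first WT wounding library is the highest and also has 12.8% not unique alignments, whose part was not tested. Neither call remained without the filter on low counts.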

How the results depend on the processing

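Of 190 counts of called members recomputed under another setting, 169 stayed within 1.5 times the count reported and 21 did not. Without the filter on low counts, 1 member was called for pep3, 1 for impk36 in B1, 7 for impk4 in B1, 1 for impk36 with UVB, 8 for 3MBiP at 6 h, and 0 for the responses to wounding in impk36 and in impk4. With the replicate block the counts were 1 for pep3, 5 for impk36 in B1, 1 for impk36 and 1 for impk4 with UVB, 4 for the response to pep3 in impk36 and 2 for that to wounding in impk4. The block changed no other count by that much, and for mock at 3 h it gave 83, as without it. DESeq2 called 12 for impk36 and 51 for impk4 in B1, 28 for impk36 and 2 for impk4 with H2O2, 23 for 3MBiP at 6 h, 9 for the response to pep3 in impk36, 1 for that to flg22 at 30 min in impk4 and 5 for that to wounding in impk4. The cause of these shifts was not tested. Scaling by relative log expression or by nuclear loci moved no count by that much.

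Leaving out 1 library gave 0 to 1 calls for methyl jasmonate, 0 to 2 for pep3, 0 to 92 for impk36 and 2 to 35 for impk4 in B1, 0 to 3 for flg22 at 30 min, 2 to 5 at 1 h and 2 to 24 for wounding. It gave 0 to 2 for impk36 with UVB, 11 to 21 for H2O2, 5 to 23 for impk36 and 0 to 2 for impk4 with H2O2, and 2 to 5, 1 to 17, 3 to 17 and 22 to 39 for 3MBiP at 3, 6, 12 and 24 h. Counts for mpk4 (54 to 69), the mock times (47 to 84) and both lines of B2 (111 to 119 and 39 to 60) stayed within 1.5 times. For the responses, where leaving out a library was chosen after seeing the data, it gave 0 to 30 calls for pep3, 0 to 1 for flg22 at 1 h and 0 to 5 for wounding in impk36, and 0 to 1 for flg22 at 1 h and 0 to 7 for wounding in impk4. No fold change of a named locus reversed; under other settings 18 values lost their call and 716 kept it, and without a library 154 lost it and 1094 kept it.

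As means over groups, the chloroplast share was 0.0381% in B3 and 0.0334% over all counts in the file. In B4 it was 0.915%, 0.796% over all counts and 0.668% without its most read locus, and in adult shoots 1.26 and 0.808% without that locus. The mitochondrial share without its most read locus was 0.0136% in B3 (0.0304% with it), 0.0316% in B4 (0.0707%), 0.0164% in B1 (0.0355%), 0.0211% in B2 (0.0475%) and 0.00932% in adult shoots (0.0182%). In B4 it was 0.0614% over all counts. Of the shares by group, 103 moved by more than 1 SD between replicates under such a setting and 185 did not. The time course, at 0, allowed no fit. Depth limits loci of few reads, such as ATMG00410.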
